A study of Mus musculus with 6 samples.

Results

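The nuclear-encoded genes of the respiratory chain were described by complex in RNA from the corpus callosum of mouse pups. Members were the gene symbols that start with Nduf (without the Ndufaf assembly factors), Uqcr, Atp5 or Cox followed by 4 to 8, together with Sdha, Sdhb, Sdhc, Sdhd, Cyc1 and Cycs. They were 87 of the 24411 genes of the files: 38 of complex I, 4 of complex II, 9 of complex III, 18 of complex IV, 17 of complex V and Cycs, which encodes the mobile carrier cytochrome c. Complexes were set by symbol alone. Complex V thus holds Atp5s and Atp5sl, now named Dmac2l and Dmac2, which are not subunits of it. These genes entered its sums, counts of zeros and promoter counts, and neither was tested. The 2 groups compared were both from callosum cut by hand from frozen brain sections on postnatal day 4. The mutant was labelled Mettl14 cKO, a conditional knockout of a subunit of the enzyme that writes N6-methyladenosine on RNA, and was set against WT. Each group had 3 libraries of polyadenylated RNA, and the labels place all brains in the B6 strain. The labels name neither the Cre driver nor the cells that lost the gene, and are silent on whether libraries of a group are different pups. All p-values therefore measure the spread between these libraries, which may be technical.

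The respiratory chain sits in the inner mitochondrial membrane. Complex I takes electrons from NADH and complex II from succinate, complex III passes them to cytochrome c, and complex IV hands them to oxygen. The proton gradient that complexes I, III and IV build drives complex V, the ATP synthase. Axons far from the cell body depend on this ATP for transport and growth, and the mRNAs of Cox4i1 and an ATP synthase c subunit are known to reach axons of sympathetic neurons in the rat. Subunits encoded by mitochondrial DNA were not analysed here.

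Member mRNAs were short, with a median longest transcript of 724 bases against 2999 bases over the genes with any count, and a median of 4 exons. Their promoters were searched for letters that the choice of members did not use. RefSeq promoters of build GRCm38.p6, from 250 bases before to 50 after the start, were matched for 71 of the 87 members. The letters GCATGCGC, found on either strand and part of the site of NRF1, a regulator of mitochondrial genes, stood in 15.5% of member promoters and in 3.05% of all 27025 genes with a promoter (3.94% of coding genes). The ETS letters CCGGAAG, as bound by GABPA, stood in 22.5% of member promoters and 9.93% of all (12.9% of coding genes). AAGATGGC, part of the YY1 site, stood in 15.5% of member promoters and 3.19% of all (3.57% of coding genes). Its 11 carriers were 7 genes of complex I and 4 placed in complex V by symbol, among them Atp5sl, which is not a subunit. Most member promoters thus held none of a given motif, and these shares were not tested. A match is a run of letters and was not measured as binding.

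Promoters of a gene from each of complexes I to IV are shown to let these letters be seen in place, from 5′ to 3′ on the strand of the gene, with GCATGCGC, CCGGAAG, AAGATGGC and their reverse complements in capitals. In Cox6a1 and Uqcrc1 the NRF1 letters match on both strands, so the capitals run on over the overlap. The regions are chr10:80249199-80249498 on the plus strand for Ndufs7, chr4:140961021-140961320 on the plus strand for Sdhb, chr9:108936398-108936697 on the plus strand for Uqcrc1 and chr5:115348909-115349208 on the minus strand for Cox6a1.
Ndufs7: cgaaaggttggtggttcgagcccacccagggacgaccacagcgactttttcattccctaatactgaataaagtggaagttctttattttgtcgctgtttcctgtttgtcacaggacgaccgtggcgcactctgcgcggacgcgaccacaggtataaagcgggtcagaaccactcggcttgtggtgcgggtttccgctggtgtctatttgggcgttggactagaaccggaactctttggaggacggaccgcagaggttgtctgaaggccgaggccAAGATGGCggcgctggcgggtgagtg
Sdhb: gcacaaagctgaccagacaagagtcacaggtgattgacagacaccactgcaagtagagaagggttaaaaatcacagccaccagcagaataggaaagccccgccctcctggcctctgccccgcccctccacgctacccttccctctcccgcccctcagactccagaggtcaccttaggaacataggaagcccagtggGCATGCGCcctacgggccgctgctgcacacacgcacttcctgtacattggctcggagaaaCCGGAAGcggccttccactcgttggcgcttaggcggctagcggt
Uqcrc1: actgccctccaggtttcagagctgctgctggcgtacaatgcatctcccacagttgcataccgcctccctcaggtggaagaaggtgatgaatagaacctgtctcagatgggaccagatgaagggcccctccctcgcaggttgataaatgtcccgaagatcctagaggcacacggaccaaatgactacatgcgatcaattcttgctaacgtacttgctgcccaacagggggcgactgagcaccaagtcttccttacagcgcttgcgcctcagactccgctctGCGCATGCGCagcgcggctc
Cox6a1: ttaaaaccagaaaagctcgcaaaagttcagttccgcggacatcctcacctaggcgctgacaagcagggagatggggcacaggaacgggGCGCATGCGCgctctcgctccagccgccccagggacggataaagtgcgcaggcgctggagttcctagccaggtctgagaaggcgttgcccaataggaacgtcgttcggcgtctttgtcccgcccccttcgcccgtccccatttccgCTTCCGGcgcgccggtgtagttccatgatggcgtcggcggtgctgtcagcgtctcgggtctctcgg

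Libraries held between 670462 and 1268430 expected counts, a low depth. Both libraries numbered replicate 2 were the deepest and had the shortest fragments (mean 292.7 bases in cKO and 304.3 in WT, against 332.4 to 350.5 in the others). Mettl14 had 2, 7 and 2 counts in cKO replicates 1 to 3 and 11, 8 and 5 in WT replicates 1 to 3, too few to check the knockout. The label calls the tissue callosal axon, and the libraries of both groups also held glial RNA, in unlike amounts. Summed CPM (counts scaled by TMM to a common library size) of 7 oligodendrocyte markers was 2.0 to 10.8 in cKO, where Mog, Mag and Myrf were at 0, and 2510 to 4110 in WT. The summed CPM of 7 astrocyte markers was 1190 to 1490 in cKO and 5040 to 5780 in WT, and that of 8 neuron markers 9800 to 13400 in cKO and 6920 to 8840 in WT. Sums were also lower in cKO for 4 endothelial markers (25 to 32.3, against 72.2 to 117 in WT). The same held for 4 mural cell markers (21.2 to 76.1, against 94 to 186 in WT). Those of 5 microglia markers overlapped (36.3 to 210 in cKO and 58.4 to 439 in WT). Xist had 2323 to 4618 counts in cKO libraries and 0 in WT libraries, so genotype and sex cannot be told apart. In such bulk RNA fewer cells of a type and less RNA per cell cannot be told apart either.

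Respiratory chain genes took 1.46%, 1.57% and 0.68% of all counts in cKO replicates 1 to 3 and 1.44%, 1.4% and 1.42% in WT replicates 1 to 3. The share in cKO replicate 3 was thus lower than in the other 5 libraries, which lay close together. That library was also the shallowest. Summed CPM of 5 markers of oligodendrocyte precursors was 971, 659 and 11.3 in cKO replicates 1 to 3 and 2280 to 2870 in WT, so cKO replicate 3 stood apart there too, and the part of this in the results was not tested. Results that rest on it are given below with and without it.

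**Figure D1:**
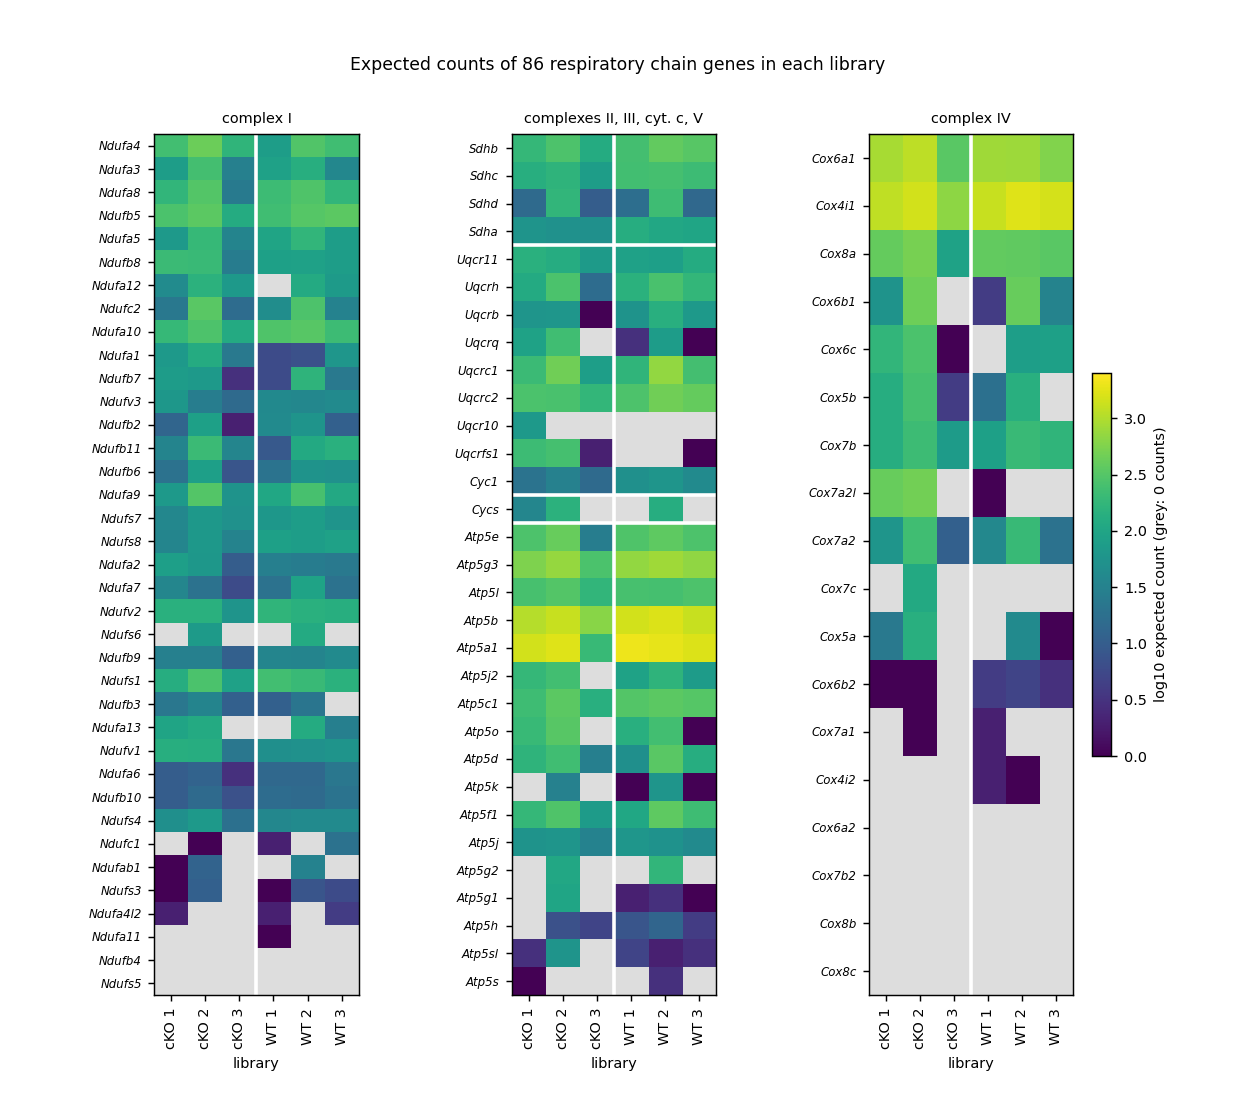
Each cell is the expected count of 1 of 86 genes (rows, ordered by mean TPM within a complex) in a library (columns, cKO left of WT), as log10, with grey for 0 counts. The ATP synthase and cytochrome oxidase genes Atp5b, Cox4i1 and Cox6a1 are bright in all 6 libraries, while 36 genes are grey in at least 1 library and 6 are grey in all.

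Among the members, 51 had a count above 0 in every library, 30 were at 0 in 1 to 5 libraries and 6 were at 0 in all. Of these 6, Cox6a2 and Cox8b are the isoforms of heart and skeletal muscle, and Cox8c and Cox7b2 are known mainly from testis. The remaining 2, Ndufb4 and Ndufs5, encode accessory subunits of complex I that every respiring cell uses, so a listed 0 is not evidence of missing expression. A count of 0 allows up to 3 counts, or 2.41 to 4.24 CPM per library, counting error alone. Ndufa11, another accessory subunit of complex I, had 1 count in WT replicate 1 and 0 elsewhere.

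Several subunits common to all tissues were high in some libraries and at or near 0 in others. Uqcrfs1 (chromosome 13, 30540312 to 30545316, GRCm38), the Rieske iron-sulfur protein of complex III, had 211, 246 and 2 counts in cKO replicates 1 to 3 and 0, 0 and 1 in WT replicates 1 to 3. Cox7a2l (chromosome 17, 83501917 to 83514333), which helps join complexes III and IV into supercomplexes, had 410, 472 and 0 counts in cKO and 1, 0 and 0 in WT. Both genes were thus counted in cKO replicates 1 and 2 and almost absent from the other 4 libraries. Pooled over libraries, counts relative to library size were 561 times higher in cKO for Uqcrfs1 (exact 95% counting interval 100 to 22200) and 1080 times higher for Cox7a2l (193 to 42600). Ndufc1, an accessory subunit of complex I, went the other way, with 1 count over the cKO libraries and 21 over the WT libraries (ratio 0.0582, interval 0.00141 to 0.362), of which 19 were in WT replicate 3. These intervals cover counting error alone. For Uqcrfs1 and Cox7a2l cKO replicate 3, at 2 and 0 counts, lay near the WT libraries. None of the 3 genes had enough libraries with counts to pass the filter on low counts.

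Other genes were counted mainly in the replicate 2 libraries of both genotypes. Atp5g2, encoding an ATP synthase c subunit, had 0, 110 and 0 counts in cKO and 0, 171 and 0 in WT. Ndufs6, an accessory subunit of complex I, had 0, 71 and 0 in cKO and 0, 119 and 0 in WT. Cycs had 36, 152 and 0 in cKO and 0, 131 and 0 in WT. In these genes the replicate 2 libraries of both groups were high and most others were at 0. Cox7c, a small subunit of complex IV, was counted in cKO replicate 2 alone, with 117 counts, and Uqcr10, a small subunit of complex III, in cKO replicate 1 alone, with 67.

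**Figure D2:**
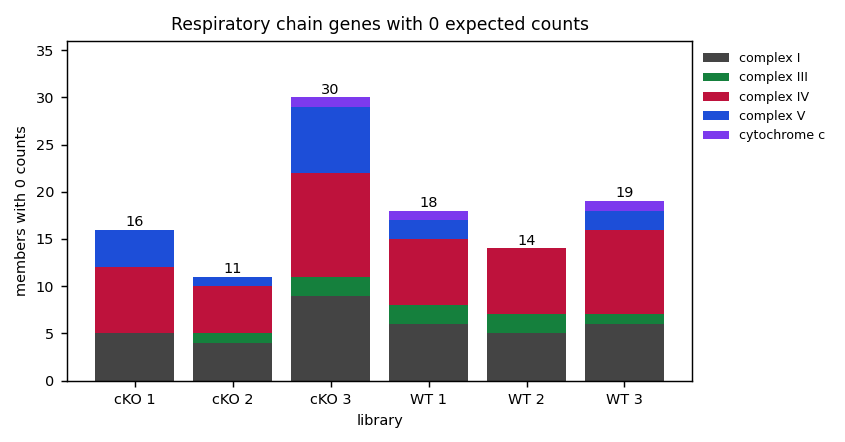
Bars give the number of members with 0 expected counts in each library (cKO left of WT), stacked by complex, and no gene of complex II was at 0 in any library. cKO replicate 3 has 30 members at 0, against 11 to 19 in the other 5 libraries, and the replicate 2 library is the lowest of each group with 11 in cKO and 14 in WT.

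Counts that jumped in this way were compared with all genes, using limits chosen after the values were seen. In cKO, 64 members reached 50 counts in some library, and 16 of them (25.0%) had 1 count or less in another cKO library. Over all genes of the files that share was 12.1%, and over genes with transcripts under 1000 bases it was 22.4%. In WT the members' share was 17.5%, against 10.1% over all genes and 15.0% over short genes. The short genes include members, and these shares were not tested against each other. All 16 members were at 1 count or less in cKO replicate 3, while in WT 7 were low in replicate 1, 7 in replicate 3 and 0 in replicate 2.

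Zeros also went with near-identical copies elsewhere in the genome. Leaving aside 8 tissue isoforms, 23 members shared at least 100 bases at 95% identity or more with an annotated pseudogene transcript (GENCODE M21), and 16 of these (69.6%) were at 0 in some library. Of the 56 with no such copy 12 (21.4%) were. Cox7c and Ndufb4 each had 2 such pseudogenes, Cycs 3, and Atp5h, a stalk subunit of the ATP synthase, 4. Cox7a2l, Atp5g2 and Ndufs6 each had 1, whereas Uqcrfs1 and Uqcr10 had 0. Uqcr10 did have 1 near-identical gene that is not annotated as a pseudogene. Atp5l, another small subunit of the ATP synthase, with 9, and Uqcrb, of complex III, with 3, were at 0 in no library. Of members under 1000 bases 41.2% were at 0 in some library, against 25.0% of longer ones. By exon number the shares were 40.0% of members of 1 to 3 exons and 33.9% of those with more. The part of copies, length and exons in the zeros was not tested. In each library at least 96.55% of member counts were whole numbers.

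Levels per length were read from TPM, the transcript level corrected for length, which is raised for transcripts close to the fragment length. In TPM, complex IV genes summed to 17440, 18720 and 8083 in cKO replicates 1 to 3 and 12920, 13700 and 12350 in WT replicates 1 to 3. Complex V summed to 13100, 12950 and 5810 in cKO and 12940, 12970 and 11670 in WT. For complex I the sums were 11050, 14680 and 6807 in cKO and 8158, 11910 and 9371 in WT. The cKO sums of these complexes lay on either side of the WT sums, with cKO replicate 3 below and at least 1 of the other cKO libraries above every WT library. Complex III behaved likewise, with 4974, 4402 and 1613 in cKO and 2714, 3804 and 3403 in WT. Complex II, the smallest, summed to 722.6, 900.9 and 652.5 in cKO and 1035, 1226 and 1114 in WT, and it was the complex whose groups did not overlap.

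**Figure D3:**
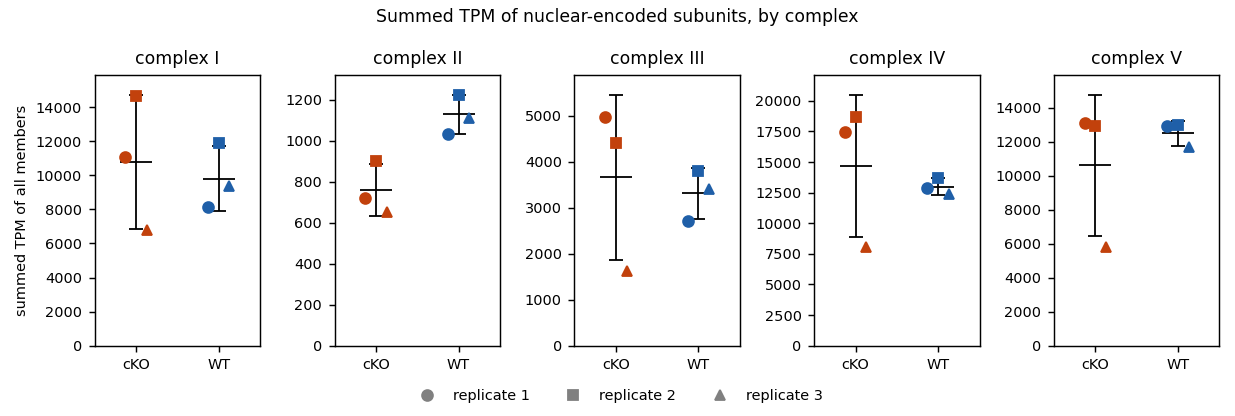
Summed TPM of all members of each complex is plotted per library, with marker shape for the replicate number, a horizontal dash for the group mean and bars for the SD (n = 3). In complexes I, III, IV and V the cKO triangle (replicate 3) lies below all WT points, and in complex II all 3 cKO points, at 652.5 to 900.9, lie below the WT points at 1035 to 1226.

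Summed CPM of complex II, which all 4 genes entered without a filter, was 523.4 ± 151 in cKO and 744.1 ± 38.5 in WT (SD, n = 3 each), a log2 ratio of −0.51. For the other complexes the log2 ratio of summed CPM was 0.11 for I, 0.11 for III, 0.31 for IV and −0.24 for V, and in none of these did the groups separate. With upper-quartile scaling, which moved the median of all genes to −0.22 against 0.07, the ratios of I, III and IV turned negative, at −0.29, −0.26 and −0.11, and that of complex II was −0.86. Without cKO replicate 3 the ratio of complex II was −0.31 and that of complex V turned positive, at 0.1. In the same setting the ratios of I, III and IV rose to 0.44, 0.49 and 0.67. Without cKO replicate 2 the ratios of I and III were −0.25 and −0.15. That of III was also below 0 without cKO replicate 1 (−0.1) and without WT replicate 1 (−0.06). Over the 6 fits that leave out 1 library, the ratio of complex II was −0.73 to −0.31. No test was made on these sums.

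The share of TPM held by the leading mRNAs differed between complexes. Cox6a1 and Cox4i1, the common isoforms of 2 regulatory subunits of complex IV, had a mean of 4510 and 4480 TPM over all libraries and together made up 64.8% of the complex's TPM. Over all libraries Cox6a1 ranged from 3300 to 6150 TPM and Cox4i1 from 3600 to 5430, so their order is within the spread. By mean TPM they stood at ranks 37 and 38 of all genes. Atp5e, the epsilon subunit of the ATP synthase, and Atp5g3, a c subunit, led complex V with means of 2490 and 2250 TPM. Atp5e was at 446 TPM in cKO replicate 3 and at 2600 or more in the others. Its transcript of 414 bases is near the fragment length, where TPM is raised. Not corrected for length, its mean CPM was 273 in cKO and 314 in WT, below the 1210 and 1510 of Atp5b. In complex I the leaders were Ndufa4, now counted with complex IV, at 1640 TPM and Ndufa3, an accessory subunit, at 1270, together 28.1% of the complex's TPM. Ndufa3, at 349 bases, is also near the fragment length. Its mean CPM was 129 in cKO and 84.1 in WT, below the 189 and 199 of Ndufs1, which had a mean of 108 TPM. Sdhb, the iron-sulfur subunit of complex II, had a mean of 496 TPM and Sdha, the flavoprotein that oxidises succinate, 49.2 TPM, although the enzyme holds them in equal numbers.

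Where a subunit has a tissue isoform, most counts pooled over each group came from the common gene. Cox4i1 had 3338 counts over the cKO libraries and 4557 over the WT libraries, while Cox4i2, known from lung, had 0 and 3. Cox6a1 had 2387 counts in cKO and 2182 in WT, and its muscle counterpart Cox6a2 had 0 in both. Cox8a, the common form of another small subunit, had 994 counts in cKO and 1098 in WT, against 0 for Cox8b. Cox7a2 had 298 counts in cKO and 251 in WT, against 1 and 2 for the muscle form Cox7a1. Cox6b1 had 497 counts in cKO and 439 in WT, against 2 and 12 for Cox6b2, known from testis. Most of the Cox6b1 counts were in the replicate 2 libraries (441 in cKO and 402 in WT), and WT replicate 1 had 4 counts of each gene. Ndufa4 had 835 counts in cKO and 606 in WT, and Ndufa4l2, induced by low oxygen, 2 and 6. The c subunit of the ATP synthase is made from 3 genes, and here Atp5g3 carried most of the counts, with 556, 725 and 273 in cKO and 713, 825 and 678 in WT. Atp5g1 had 0, 99 and 0 counts in cKO and 2, 3 and 1 in WT.

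Between the groups, 0 of the 62 members that passed the filter on low counts were called (edgeR quasi-likelihood, Benjamini-Hochberg adjusted p below 0.05 over 5918 genes), where 0.912% of all genes tested were, 0.49% as higher and 0.422% as lower. The other 25 members were not tested. DESeq2 and limma-voom also called 0 members, where they called 7.25% and 0.71% of all genes tested. At an unadjusted p below 0.05 each had 1 member, where 18.1% of all genes tested passed by DESeq2 and 12.3% by limma-voom. By edgeR 1 member, Cyc1, had an unadjusted p below 0.05, which is 1.61% of the members tested and 12.6% of all genes tested. Positive and negative log2 fold changes were 31 each, with a median of 0.01, while 53.9% of all genes tested were positive with a median of 0.07.

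Cyc1 (chromosome 15, 76343513 to 76346260), the heme-bearing cytochrome c1 of complex III, had 20, 31 and 15 counts in cKO replicates 1 to 3 and 51, 59 and 42 in WT replicates 1 to 3. Every cKO library was below every WT library, also after scaling. Its log2 fold change came to −0.95 (SE 0.38), and the difference did not pass (edgeR adjusted p = 0.382). That p was 0.105 to 0.705 over the alternatives, and 0.551 without cKO replicate 3. Complex III had 2 positive and 5 negative values among 7 tested genes, a median of −0.36 and 0 calls. The core proteins Uqcrc1 and Uqcrc2 had log2 fold changes of −0.26 (SE 0.64) and −0.36 (SE 0.35), Uqcr11, a small subunit, 0.44 (SE 0.52), Uqcrh, the hinge protein, −0.37 (SE 0.81), and Uqcrb −0.81 (SE 1.07). Uqcrq, which had 92, 227 and 0 counts in cKO and 3, 76 and 1 in WT, had 2.4 (SE 1.89).

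In complex II all 4 genes had negative log2 fold changes, with a median of −0.54, and 0 of 4 passed. Sdha had 57, 53 and 51 counts in cKO and 133, 109 and 99 in WT. Sdhc, a membrane anchor, had 134, 161 and 79 in cKO and 233, 246 and 212 in WT. After scaling, the cKO libraries of both genes lay below all WT libraries. Their log2 fold changes were −0.8 (SE 0.47, 95% interval −1.92 to 0.31) and −0.64 (SE 0.41, −1.61 to 0.33). Sdhb, with 186, 286 and 122 counts in cKO and 240, 383 and 332 in WT, had −0.44 (SE 0.38), and here the groups overlapped. Sdhd, the other anchor, had 15, 172 and 10 in cKO and 17, 218 and 14 in WT, with a log2 fold change of −0.03 (SE 1.29). In that gene both replicate 2 libraries stood far above the rest. Its value was −2.03 without cKO replicate 2 and 1.96 without WT replicate 2, and it was also positive without cKO replicate 1 (0.35) or cKO replicate 3 (0.47). The marker sums given above for oligodendrocytes, their precursors, astrocytes and endothelial and mural cells were also lower in cKO. The part of these sums in the values of complex II was not tested.

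Groups that did not overlap were seen for 3 of the 62 tested members, all lower in cKO: Cyc1, Sdha and Sdhc. That is 4.84% of the members, against 9.45% of all genes tested for lower values. In the higher direction it was 0 of 62, against 10.4% of all genes tested (19.8% in either direction).

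Complex I had 15 positive and 15 negative log2 fold changes among 30 tested genes, a median of 0.01 and 0 calls, and with upper-quartile scaling 9 were positive and 21 negative. Without cKO replicate 3, 23 were positive and 8 negative (median 0.42), and without cKO replicate 2 the median was −0.29. Ndufs8, an iron-sulfur subunit of the catalytic core, had 35, 65 and 33 counts in cKO and 85, 79 and 87 in WT, a log2 fold change of −0.71 (SE 0.46). Its cKO counts were the lower ones, although the scaled groups overlapped. Ndufs1, the largest subunit, had −0.07 (SE 0.48), Ndufs7 −0.09 (SE 0.43) and Ndufv2 −0.17 (SE 0.5). Ndufv1, which binds NADH, had 134, 131 and 22 counts in cKO and 49, 53 and 57 in WT, with 1.06 (SE 0.7). Here cKO replicates 1 and 2 were above WT and cKO replicate 3 below it. Ndufs3 had 0 to 11 counts and was not tested. Ndufs4, an accessory subunit and among tested genes of the complex low in TPM, had 0.36 (SE 0.51).

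The accessory subunits Ndufa2 and Ndufb8 had that split as well. Ndufa2 had 84, 63 and 10 counts in cKO and 29, 27 and 24 in WT, with a log2 fold change of 1.21 (SE 0.73). Ndufb8 had 205, 201 and 27 in cKO and 86, 88 and 78 in WT, with 1 (SE 0.73). In both genes cKO replicates 1 and 2 exceeded all WT libraries and cKO replicate 3 fell short of them. Ndufa4 had 236, 432 and 167 counts in cKO and 77, 298 and 231 in WT, with 0.73 (SE 0.53), and Ndufb3 1.4 (SE 0.91). In these 2 genes cKO replicate 3 lay among the WT libraries after scaling. Ndufa1, on the X chromosome, had 70, 124 and 24 in cKO and 6, 7 and 62 in WT, with 1.58 (SE 1.09), and WT replicate 3 lay among the cKO libraries. The other X-linked members Ndufb11 and Cox7b had 0.18 (SE 1.05) and 0.12 (SE 0.5). Other accessory subunits had negative values, such as Ndufa6 at −0.79 (SE 0.52), Ndufa7 at −0.66 (SE 0.79) and Ndufb10 at −0.45 (SE 0.39).

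In complex IV 8 of 9 tested genes had positive values (median 0.5), 5 of 9 with upper-quartile scaling, and 0 passed. Leaving out 1 library moved the median to −0.1 without cKO replicate 2, 1.09 without cKO replicate 3 and 1.73 without WT replicate 2. Cox4i1, the exception, had 1198, 1480 and 660 counts in cKO and 1296, 1725 and 1536 in WT, with a log2 fold change of −0.2 and a 95% interval of −0.82 to 0.42. Cox6a1 had 896, 1152 and 339 in cKO and 817, 792 and 573 in WT, with 0.35 (−0.59 to 1.3). The interval of Cox4i1 lay within a change of 1 either way on the log2 scale, and that of Cox6a1 did not. The largest values belonged to genes with counts near 0 in some library. Cox5a, which had 24, 138 and 0 counts in cKO and 0, 42 and 1 in WT, had 2.23 (SE 1.84), Cox5b 1.68 (SE 1.72) and Cox6c 1.62 (SE 1.81).

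Complex V had 5 positive and 6 negative values, a median of −0.06 and 0 calls, with 2 positive and 9 negative under upper-quartile scaling. Atp5b, the catalytic beta subunit, had 1065, 1320 and 626 counts in cKO and 1485, 1682 and 1304 in WT, with a log2 fold change of −0.32 (95% interval −0.9 to 0.26). Atp5a1, the alpha subunit, which stands beside beta in the same catalytic ring, had 1486, 1725 and 198 in cKO and 2038, 1855 and 1684 in WT, with −0.52 (SE 0.64). The drop of Atp5a1 in cKO replicate 3 was larger than that of Atp5b in the same library. Atp5g3 had −0.28 (SE 0.33), Atp5e −0.2 (SE 0.77) and Atp5j, a stalk subunit, 0.14 (SE 0.45). For Cycs, whose counts were given above, the value was 0.92 (SE 2.13).

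**Figure D4:**
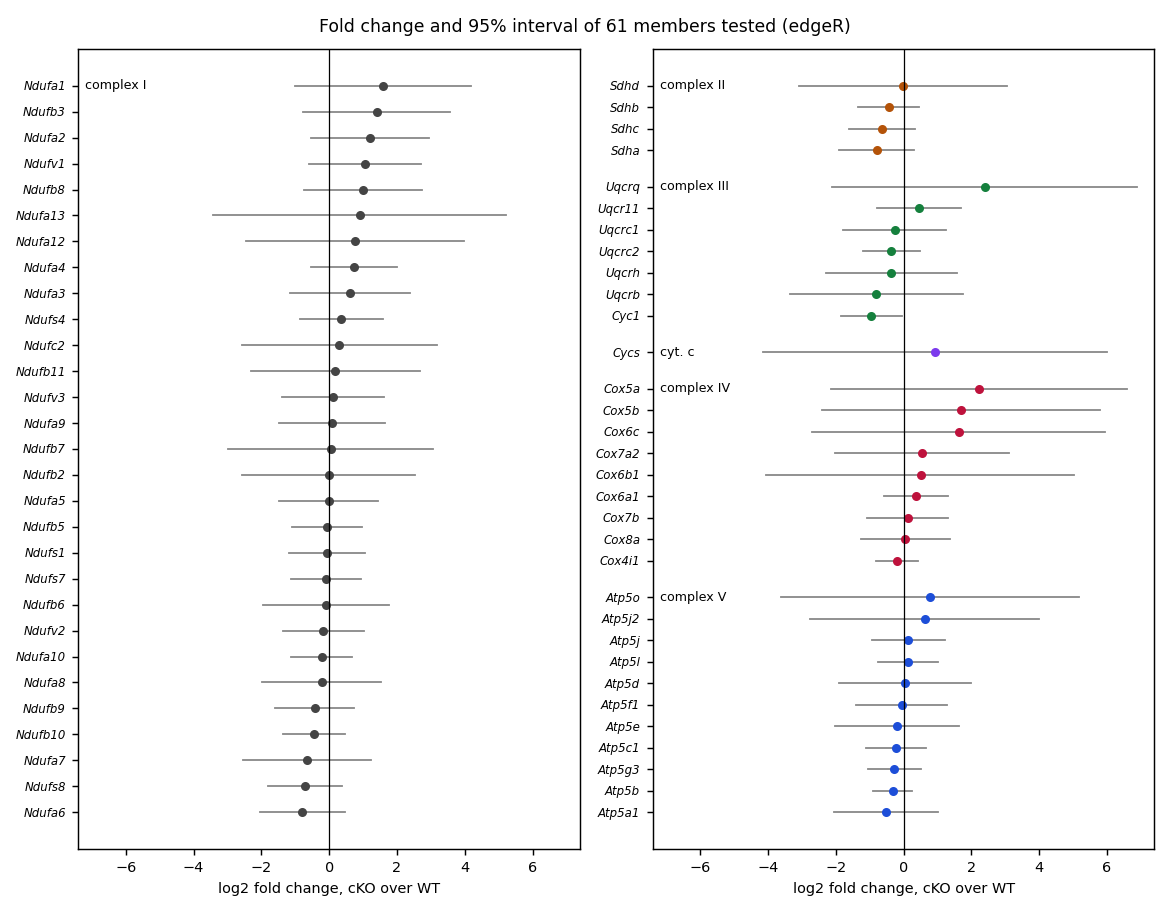
Points give the edgeR log2 fold change (cKO over WT) of 61 of the 62 members tested, by complex, and lines the approximate 95% interval. The interval of Cyc1, from −1.86 to −0.04, is the one that lies wholly on one side of 0, and the widest intervals belong to genes such as Cycs, Uqcrq and Cox5a that were at 0 in some library.

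Without cKO replicate 3 the picture of the members changed. Then 1 of 67 tested members, Cox7a2l, was called higher (edgeR adjusted p = 0.0381, and 0.0381 to 0.553 over the settings that tested it), where 0.42% of all genes tested were called higher and 0.63% in either direction. Uqcrfs1 had an edgeR adjusted p of 0.0553 in that fit. With 0 or 1 count in each WT library, both genes passed the filter there only through cKO replicates 1 and 2, where they were high. The library left out, with 0 counts of Cox7a2l and 2 of Uqcrfs1, was the cKO library that lay near WT. The call therefore rests on leaving it out and is not evidence of a difference between the groups. At an unadjusted p below 0.05 there were 7 members, Atp5j2, Cox6a1, Cox7a2l, Ndufa2, Ndufb8, Ndufv1 and Uqcrfs1, where 12.5% of all genes tested passed. The median log2 fold change of the members was 0.35 without that library, 0.11 for all genes tested. The median of complex I was 0.42, that of complex II −0.35 and that of complex IV 1.09, while that of complex III turned positive, at 0.14, and that of complex V at 0.28.

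The replicate 2 libraries, the deepest, were set side by side as 1 cKO and 1 WT library, with no test and as a comparison added after seeing the data. Of 68 members with more than 3 counts in both, tested or not, 54 (79.4%) differed by no more than 1 on the log2 scale. Over the 5763 tested genes with more than 3 counts in both, the share was 68.2%. The median log2 ratio was 0.42 for these members and 0.13 for these tested genes. All 4 genes of complex II were lower in cKO there, from −0.72 to −0.02, and all 9 of complex IV higher, from 0.1 to 2.09. Both libraries also entered the comparison of the groups above, so these values are not separate evidence. In complex V all 14 lay within 1 of 0. The limit on counts leaves out members that differed most between these libraries, among them Cox7a2l with 472 counts in cKO and 0 in WT, Uqcrfs1 with 246 and 0, and Atp5g1 with 99 and 3.

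Genes that build and regulate the chain, taken as lists, held 0 calls (edgeR). Of assembly factors, 0 of 6 tested for complex I and 0 of 8 for complexes II to V passed. Acad9, an assembly factor of complex I, had 15, 10 and 17 counts in cKO and 50, 60 and 74 in WT, and edgeR gave −1.81 on the log2 scale (SE 0.51, adjusted p = 0.23). Its groups did not overlap. Tmem70, which assembles the ATP synthase, had 127, 134 and 118 in cKO and 71, 92 and 69 in WT, with 1.01 (SE 0.42). Its groups did not overlap either, and neither gene passed. Among transcriptional regulators 0 of 5 passed. Nrf1 had 9, 78 and 14 counts in cKO and 7, 16 and 11 in WT, with 1.71 (SE 0.75). Most of its cKO counts were in replicate 2, and the scaled groups overlapped. Of 15 tested enzymes of the tricarboxylic acid cycle 12 had negative values (median −0.2; 9 without cKO replicate 3) and 0 passed, with Fh1, fumarase, at −0.67 (SE 0.48).

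Of 15 tested genes of mitochondrial import all had positive log2 fold changes (median 0.57, where the median of all genes tested was 0.07) and 0 passed. With upper-quartile scaling 14 of the 15 were positive. Timm9, a chaperone of the intermembrane space, had the smallest p, with 0.87 (SE 0.39). Mitochondrial ribosomal proteins had 23 positive and 16 negative values among 39 tested (median 0.38) and 0 calls, with 20 and 19 (median 0.02) under upper-quartile scaling and 36 and 11 without cKO replicate 3. Mrpl50 had 56, 145 and 13 counts in cKO and 0 in each WT library, and did not pass (edgeR adjusted p = 0.116). Carriers and pores had 6 values of each sign among 12, and 1 positive and 11 negative under upper-quartile scaling. The smallest p was that of Slc25a5, the ATP/ADP carrier, at −0.41 (SE 0.27). Of 14 tested genes of mitochondrial transport and dynamics 0 passed, and Kif5c, the kinesin heavy chain of neurons, had 0.58 (SE 0.22).

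Among members with several transcripts, Atp5j changed its mix between libraries. Its transcript NM_016755 had 13.37, 44.41 and 0 estimated counts in cKO and 0 in each WT library, while NM_001302214 had 29.44, 2.49 and 21.65 in cKO and 50.81, 48.9 and 36.9 in WT. The gene's summed counts overlapped between the groups, with 55, 59 and 32 counts in cKO and 62, 54 and 42 in WT. These are RSEM estimates from few reads and were not tested. Ndufv3 was counted almost wholly as its short transcript, at 98.62% or more of the gene's transcripts in all 6 libraries.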

How the data were processed

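RNA sequencing was analysed from 3 cKO and 3 WT libraries. Polyadenylated RNA was made into libraries with the NEBNext Ultra kit, per the labels' protocols; this kit keeps no strand information. Per the submitters' processing notes STAR 2.7.10b, RSEM 1.3.3 and mm10 were used; the annotation is not stated. The deposited expected counts, per the file headers, are estimated fragments per transcript, the deposited TPM values are scaled to length and library total, and the deposited percent of isoform gives each transcript's share. Per the file headers the other length columns were deposited in bases, and the deposited FPKM values were not used.

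Expected counts and TPM were summed per gene, and counts rounded. Groups were compared with edgeR 4.0.16 in R 4.3.3 (quasi-likelihood, TMM, filterByExpr with a minimum count of 10), over all 6 libraries with no covariate. Fold changes are cKO over WT. SEs were derived from the F statistic and give the 95% intervals. Copies were found with blastn among GENCODE M21 transcripts. All 87 members matched RefSeq genes (GRCm38, the assembly of mm10) by accession. Genes and antisense genes that overlap cannot be told apart, and copies may share reads, which was not measured. Also tried were DESeq2 1.42.0, other scalings (RLE, upper quartile) and filters, limma-voom, limma 3.58.1 on log2(TPM + 1) or log2(TPM + 0.5), unrounded counts, a replicate block, a term for replicate 2, and leaving libraries out. The fit was tested on simulated data. Members, lists and the rule for named genes (per complex the smallest p, highest and lowest TPM, core subunits, complex II, isoform pairs, groups without overlap, and per list the smallest p) were chosen with earlier results of these data known; Uqcrfs1, Cox7a2l, Uqcr10, Cox7c, Ndufs6, Ndufb4, Ndufs5, Ndufa11, Ndufb8, Ndufa1, Ndufb11, Cox7b, Atp5h, Uqcrc1, Uqcrb, Atp5l, Ndufc1, Ndufa6, Ndufa7, Ndufb10, Ndufv3 and Mrpl50 were named after their values were seen. Counting intervals cover counting error only. The values of 1 member are not reported here, and it enters the counts and sums only.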

Additional observations from a re-analysis of the deposited data

How the results depend on the processing

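The count of 0 called members in either direction held under all alternatives but 1: without cKO replicate 3 edgeR called 1 higher, and the counts without each library in turn ranged from 0 to 1 higher and 0 to 0 lower. Over all genes, 29 higher and 25 lower became 12 and 10 without a filter or with 1 CPM in 3 libraries, 250 and 179 with DESeq2, 11 and 8 with a term for replicate 2, and 0 and 0 without both replicate 2 libraries; leaving out 1 library gave 0 to 28 higher and 0 to 14 lower. With upper-quartile scaling the median log2 fold change of complex II was −0.9 and its log2 ratio of summed CPM −0.86, and the median of all genes moved to −0.22, against 0.07; those of the other complexes moved by less than the spread between libraries, though some turned sign. With the replicate block 1 gene was higher and 0 lower (edgeR), 0 members were called, and Cox5b in place of Cyc1 had an unadjusted p below 0.05. Same-numbered libraries had correlated deviations of 0.0638, 0.462 and 0.162, so the numbers were not taken as pairs; the replicate 2 libraries and WT replicate 3 matched best with their own number, and the other 3 libraries did not. Of 34 tested members named by the rule, 19 kept their sign under every alternative that tested them and 15 did not. Of these 34, 0 were called. Genes of the other lists and genes named after their values were seen, Cox7a2l among them, are not in this count. Precision was limited by the spread between libraries: 18 of the 62 tested members had an SE above 1, and 11 of these had 1 count or less in some library. The causes of these changes were not tested.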
